A study of Rattus norvegicus with 6 samples.

Results

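The 10 genes described here belong to the cellular response to low oxygen: Hif1a, the oxygen-regulated subunit of hypoxia-inducible factor 1; the HIF prolyl hydroxylases Egln1 and Egln3; and the non-glycolytic HIF targets Vegfa, Adm, Car9, P4ha1, Bnip3, Ndrg1 and Ankrd37. They were chosen by symbol, and all 10 were found among the 37183 symbols of the deposited table, with a value in each of the 6 libraries. Primary rat hippocampal astrocytes and primary rat hippocampal neurons gave 1 library each for a control, for 6 h and for 12 h of exposure to 200 nM insulin. All cultures were given fresh medium 4 h before treatment. For astrocytes it held 2% FBS and 5 mM glucose, and for neurons it was serum-free Neurobasal with insulin-free B27. The titles call the controls saline-treated and the characteristics call them untreated, at a time point of 0 min. When the controls were harvested is therefore not clear, and if it was at 0 min, time after the medium change and insulin cannot be told apart. The labels give no oxygen tension for the cultures, and they do not say how many animals or wells went into a library.

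In normal oxygen, EGLN enzymes hydroxylate prolines of HIF alpha subunits, the VHL ubiquitin ligase then marks them for destruction, and little HIF protein accumulates. When oxygen falls, or when hydroxylation is otherwise slowed, the alpha subunit is stabilised, pairs with ARNT and binds short hypoxia-response elements near its target genes. Insulin and growth factors are also known to raise HIF1A protein through PI3K and mTOR signalling without a fall in oxygen. HIF1A is controlled largely at the protein level, which RNA sequencing does not measure. The targets include Egln3 and Egln1 themselves, which act as negative feedback.

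The core of a hypoxia-response element is the word ACGTG, or the same word with another first letter, GCGTG. Both words were searched on both strands in the 250 bases before the RefSeq start sites, in the GRCr8 windows, which matched 9 of the 10 genes (Ndrg1 was not matched) in 10 windows, since Vegfa has 2. Of all 33469 such windows, 16.6% held ACGTG. The share with GCGTG was 25.9%, and 36.7% held at least 1 of the words. Among the matched genes, 5 held one, and 4 did not (Adm, Car9, Egln3 and Vegfa). The 4 windows with at least 2 matched stretches are printed because they show the word in its setting in this group. Each is read 5′ to 3′ in the direction of its gene. Capitals mark the searched words on either strand, and a stretch of 6 capitals is a palindrome that counts once for each strand.
Hif1a (GRCr8 chr6:98359648-98359897, + strand): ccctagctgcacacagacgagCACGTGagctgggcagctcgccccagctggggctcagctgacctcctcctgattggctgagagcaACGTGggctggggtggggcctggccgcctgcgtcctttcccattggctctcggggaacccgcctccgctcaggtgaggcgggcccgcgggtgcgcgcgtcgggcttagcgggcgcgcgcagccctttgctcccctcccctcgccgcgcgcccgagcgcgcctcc
P4ha1 (GRCr8 chr20:27844796-27845045, + strand): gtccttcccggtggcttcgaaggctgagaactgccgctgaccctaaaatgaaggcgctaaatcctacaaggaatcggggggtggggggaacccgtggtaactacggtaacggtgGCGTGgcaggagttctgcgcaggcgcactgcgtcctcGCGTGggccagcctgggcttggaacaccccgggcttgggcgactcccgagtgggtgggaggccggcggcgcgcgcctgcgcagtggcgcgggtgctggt
Bnip3 (GRCr8 chr1:203154963-203155212, - strand): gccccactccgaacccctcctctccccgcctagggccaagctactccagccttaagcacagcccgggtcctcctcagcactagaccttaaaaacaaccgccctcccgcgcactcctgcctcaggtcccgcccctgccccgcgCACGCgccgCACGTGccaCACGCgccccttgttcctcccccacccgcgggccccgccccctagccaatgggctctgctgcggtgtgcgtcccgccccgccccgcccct
Ankrd37 (GRCr8 chr16:53001257-53001506, + strand): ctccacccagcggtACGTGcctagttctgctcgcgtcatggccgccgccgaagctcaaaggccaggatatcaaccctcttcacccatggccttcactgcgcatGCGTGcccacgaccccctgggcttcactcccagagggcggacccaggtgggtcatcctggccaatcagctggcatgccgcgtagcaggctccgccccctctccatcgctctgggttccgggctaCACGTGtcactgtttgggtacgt
In Hif1a the matches begin 229, 228 and 164 bases before the start. In P4ha1 they begin 136 and 99 bases before it. Bnip3 has matches from 108 to 90 bases before the start, and Ankrd37 at 236, 147, 23 and 22 bases. Egln1, not printed, holds 1 GCGTG, 56 bases before its start. These are matches of letters only, and no binding was measured.

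Levels are given as FPKM (fragments per kilobase of a transcript, per a fixed library total), taken back from the deposited log2 scale. Quantile normalisation gave the 6 libraries 1 shared distribution, in which 1 FPKM is at the 74.7 percentile of the symbols with a value, in each library alike. A gene was compared when at least 1 FPKM was reached in either library, and was counted as higher or lower at a log2 difference of 1 (2-fold). "Rose" and "fell" are kept for that size. No read counts were used, the depth is unknown, and with 1 library per group no difference can be set against a spread between replicates, so no test was made. Hif1a and Vegfa were at 1 FPKM or more in all 6 libraries, 4 more (Adm, Car9, P4ha1 and Bnip3) in some of them, and Egln1, Egln3, Ndrg1 and Ankrd37 in none.

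The libraries did not match their cell type labels cleanly. Of 11 astrocyte markers, 10 were higher in the neuron-labelled control, where the 11 summed to 373 FPKM against 55.3 FPKM in the astrocyte-labelled control. The 6 smooth muscle and pericyte markers summed to 425 FPKM in the astrocyte-labelled control against 4.52 FPKM, and the 5 fibroblast markers found to 94.4 against 0.0697 FPKM. The 13 neuron markers summed to 70.4 FPKM in the neuron-labelled control against 5.14 FPKM. The sum of the 10 oligodendrocyte lineage markers was larger, at 154 FPKM in the neuron-labelled control against 7.47 FPKM. Within that list Cspg4 and Mog went the other way, and Olig2 and Mag were blank in the astrocyte-labelled control. The excitatory marker Slc17a7 was blank in all astrocyte-labelled libraries and at 0.00241 FPKM in the neuron-labelled control. The cultures are therefore called astrocyte-labelled and neuron-labelled, and a difference between them in a bulk library cannot separate cell makeup from RNA per cell.

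Between the controls, Car9, Adm and P4ha1 exceeded 2-fold in favour of the astrocyte-labelled control, none of the 6 members at 1 FPKM or more was lower by that much, and Hif1a itself was nearly level. Car9, Adm and P4ha1 reached 1 FPKM in the astrocyte-labelled control alone, so they could be called in that direction only, and their count is a description. Across all 7146 genes compared, 18.7% were called higher and 21.9% lower in the astrocyte-labelled control. The median over all 10 members was 1.11, with 6 above 0, beside -0.10 over all genes with a value in both controls. Among 30 other non-glycolytic HIF targets with a value in both controls it was -0.13, with 15 above 0 and 15 below. Among 15 glycolytic HIF targets it was -0.0636, with 7 above 0 and 8 below. With no floor on the level, 5 members were called higher (21.4% of all genes) and 1 lower (25.2%), and with a floor of 0.1 FPKM the same numbers were called, beside 19.7% and 24.1% of all genes. At 1.5-fold 4 were higher (27.2%) and 1 lower (32.3%).

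Car9 encodes carbonic anhydrase IX, a surface enzyme that helps cells export acid. Its level was 19.4 FPKM in the astrocyte-labelled control but 0.00370 FPKM in the neuron-labelled one, a log2 difference of 12.35, which 0.0840% of the genes compared reached. It was the highest member in all 3 astrocyte-labelled libraries, at 22.4 FPKM after 6 h and 22.1 FPKM after 12 h (between the 97.6 and 97.9 percentile over the 3). In the neuron-labelled libraries it was the lowest member, at 0.0153 FPKM after 6 h and 0.00292 FPKM after 12 h. The size of a difference from so low a level is uncertain.

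P4ha1 encodes the catalytic subunit of collagen prolyl 4-hydroxylase, which collagen needs for a stable triple helix. Its levels were 3.09, 3.55 and 3.76 FPKM over the astrocyte-labelled libraries (control, 6 h, 12 h), and 0.311, 0.493 and 0.530 FPKM in the neuron-labelled ones. The control difference was 3.31. Its relatives P4ha2 (1.87 against 0.0853 FPKM) and P4ha3 (3.17 against 0.0715 FPKM), and the lysyl hydroxylase Plod2 (3.83 against 0.0604 FPKM), were higher in the same control, where the fibroblast and smooth muscle markers were also higher. The part of these cells in the P4ha1 difference was not tested.

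Adm encodes adrenomedullin, a vasodilator peptide. Its control levels were 5.40 FPKM (astrocyte-labelled) and 0.947 FPKM (neuron-labelled), a difference of 2.51. Vegfa, the main angiogenic growth factor of the HIF response, was at 5.37 and 3.38 FPKM, a difference of 0.67, short of 2-fold. Vegfa was the highest member in each neuron-labelled library, and its 6 values ran from 3.38 to 6.34 FPKM.

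Hif1a was at 1.37 and 1.47 FPKM in the astrocyte-labelled and neuron-labelled controls, a difference of -0.10, equal to the median of all genes compared. Bnip3, a mitochondrial receptor for mitophagy, was lower in the astrocyte-labelled control, at 0.877 against 1.54 FPKM (-0.81), short of 2-fold. The pseudogene row Bnip3-ps1 was far higher, at 14.7 and 29.7 FPKM, with a difference of -1.01. Reads of near-identical copies may be divided between these rows, so the Bnip3 level is uncertain. The members below 1 FPKM in both controls were given no call. Ndrg1, a stress-induced gene, was at 0.668 against 0.122 FPKM, and Ankrd37, an ankyrin-repeat protein gene known as a direct HIF1 target, at 0.523 against 0.178 FPKM. The hydroxylase genes Egln1 (0.436 against 0.737 FPKM) and Egln3 (0.115 against 0.231 FPKM) were lower in the astrocyte-labelled control.

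**Figure D1:**
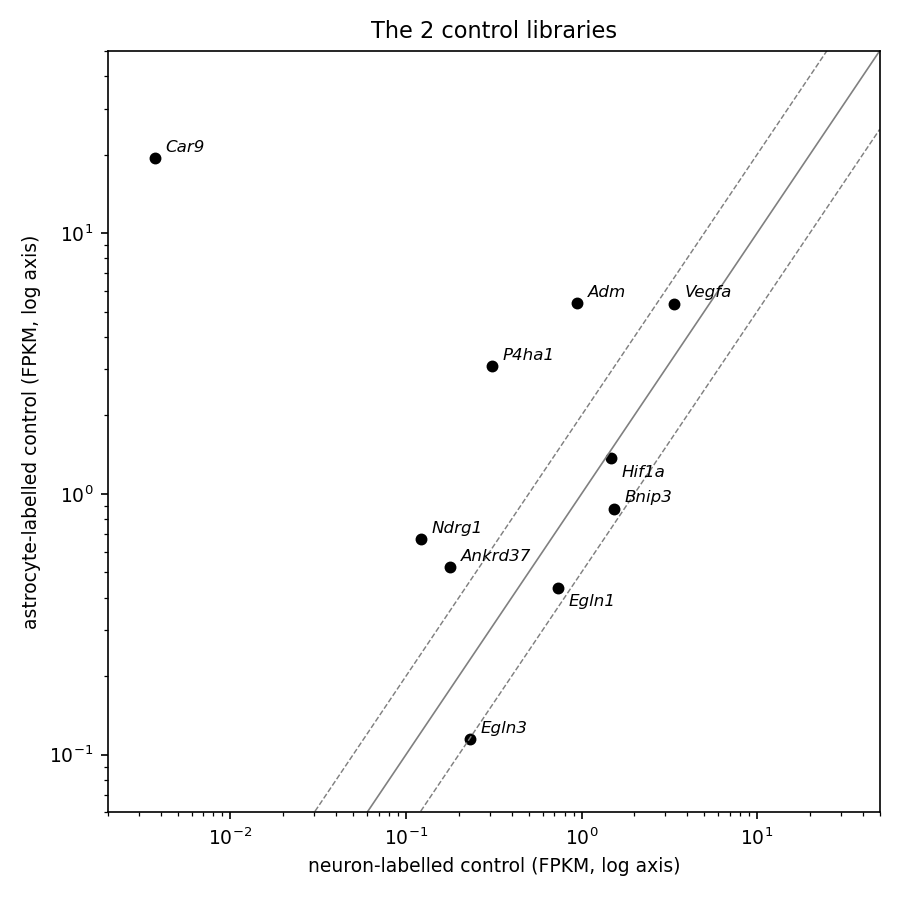
Level of each of the 10 genes in the astrocyte-labelled control (vertical, FPKM, log axis) against the neuron-labelled control (horizontal, FPKM, log axis), 1 library each. The solid line marks equal levels and the dashed lines a 2-fold difference; Car9, P4ha1 and Adm lie above the upper dashed line at 1 FPKM or more, Ndrg1 and Ankrd37 lie above it at lower levels, and Hif1a lies next to the solid line.

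After insulin in the astrocyte-labelled cultures, none of the 5 members compared was called at 6 h or at 12 h. Over all genes, 1.05% were called higher and 0.886% lower at 6 h, of 6206, and 0.611% higher and 0.916% lower at 12 h, of 6221. The median over all 10 members was 0.12 at 6 h and 0.09 at 12 h, beside 0.16 and 0.18 over all genes with a value in both libraries. The 6 h and 12 h differences share the control library.

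Hif1a was nearly level in these cultures, at 1.37 FPKM before insulin, 1.38 FPKM at 6 h and 1.47 FPKM at 12 h. The insulin minus control differences were 0.02 and 0.10, against an all-gene median of 0.09 and 0.10 among genes at 1 FPKM or more. In the same order of libraries Vegfa was at 5.37, 5.24 and 6.34 FPKM, Car9 at 19.4, 22.4 and 22.1 FPKM, and P4ha1 at 3.09, 3.55 and 3.76 FPKM. All of these differences lay between -0.03 and 0.28.

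Adm lay farther from its control than the other members at 1 FPKM or more at 6 h. It was at 5.40 FPKM in the control, 8.19 FPKM at 6 h and 5.08 FPKM at 12 h, so that the 6 h library was high and the other two were close. The 6 h difference was 0.60, or 0.51 above the median of all genes, and 4.19% of the genes compared were at least as high. Summed markers of several cell types were also higher in that library than in the control, and those of others were lower. Over the control, 6 h and 12 h libraries the 13 neuron markers summed to 5.14, 6.80 and 5.16 FPKM, the 11 astrocyte markers to 55.3, 62.0 and 62.6 FPKM and the 6 microglia markers to 4.13, 6.49 and 4.86 FPKM. The largest sum was that of the 6 smooth muscle and pericyte markers, at 425, 438 and 504 FPKM. Of these, Tagln was higher at 6 h than in the control (372 against 353 FPKM) and Acta2 lower (47.4 against 54.4 FPKM). Lower at 6 h than in the control were the oligodendrocyte lineage sum (7.31 against 7.47 FPKM) and the fibroblast sum (90.3 against 94.4 FPKM). The endothelial sum was lower as well (0.262 against 0.504 FPKM), with no marker at 1 FPKM. Among single markers, Gfap was at 6.23, 12.4 and 8.45 FPKM, Nefl at 2.30 FPKM at 6 h and 1.11 FPKM at 12 h (a 6 h difference of 1.01), Syn1 at 0.943, 1.92 and 1.32 FPKM, and Tmem119 at 4.09, 6.42 and 4.79 FPKM. Other markers of the same lists were lower at 6 h than in the control. Among them were Glul (4.20 against 5.32 FPKM), Gja1 (10.8 against 11.9 FPKM) and Stmn2 (1.97 against 2.43 FPKM). The neuron markers Rbfox3 and Slc17a7 were blank in the control, and the microglia markers other than Tmem119 were below 0.1 FPKM in all 3. The part of such cells in the Adm values, and in those of Egln3 described next, was not tested. Between the 12 h and 6 h libraries, which do not use the control, Adm differed by -0.69, a size that 1.60% of 6260 genes reached downward. At a limit of 1.5-fold in place of 2-fold, Adm was the 1 member called higher at 6 h (4.56% of all genes) and the 1 called lower from 6 h to 12 h (2.46% of all genes).

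The hydroxylases were low in these libraries. Egln3, the EGLN gene usually induced most by HIF, was at 0.115 FPKM in the control, 0.351 FPKM at 6 h and 0.242 FPKM at 12 h, so both insulin libraries lay above the control. The differences were 1.61 and 1.07, past 2-fold but below 1 FPKM throughout, so they carry no call. With the floor lowered to 0.1 FPKM, a limit added after the data were seen, Egln3 was the 1 member called higher at each time, where 3.36% and 3.4% of all genes were. With no floor at all the same held, beside 9.12% and 9.0%. Egln1, the main oxygen sensor of the family, was at 0.436, 0.559 and 0.445 FPKM, with differences of 0.36 and 0.03. Egln2, the third hydroxylase, was the most abundant of the 3 in every library, at 3.58, 4.00 and 3.86 FPKM here.

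Ndrg1 lay below its control. It was at 0.668 FPKM there, 0.350 FPKM at 6 h and 0.306 FPKM at 12 h, with differences of -0.93 and -1.13, again below 1 FPKM in all 3. With the floor at 0.1 FPKM it was the 1 member called lower at 12 h (1.69% of all genes), as it was with no floor (4.32%). Ankrd37 was at 0.523, 0.539 and 0.455 FPKM. Bnip3 was at 0.877, 0.862 and 0.930 FPKM, and Bnip3-ps1 at 14.7, 13.0 and 14.2 FPKM, with differences from -0.20 to 0.09 over these 3 rows. Egln3 and Ndrg1, both known HIF targets, thus differed in opposite directions in the same pair of libraries.

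**Figure D2:**
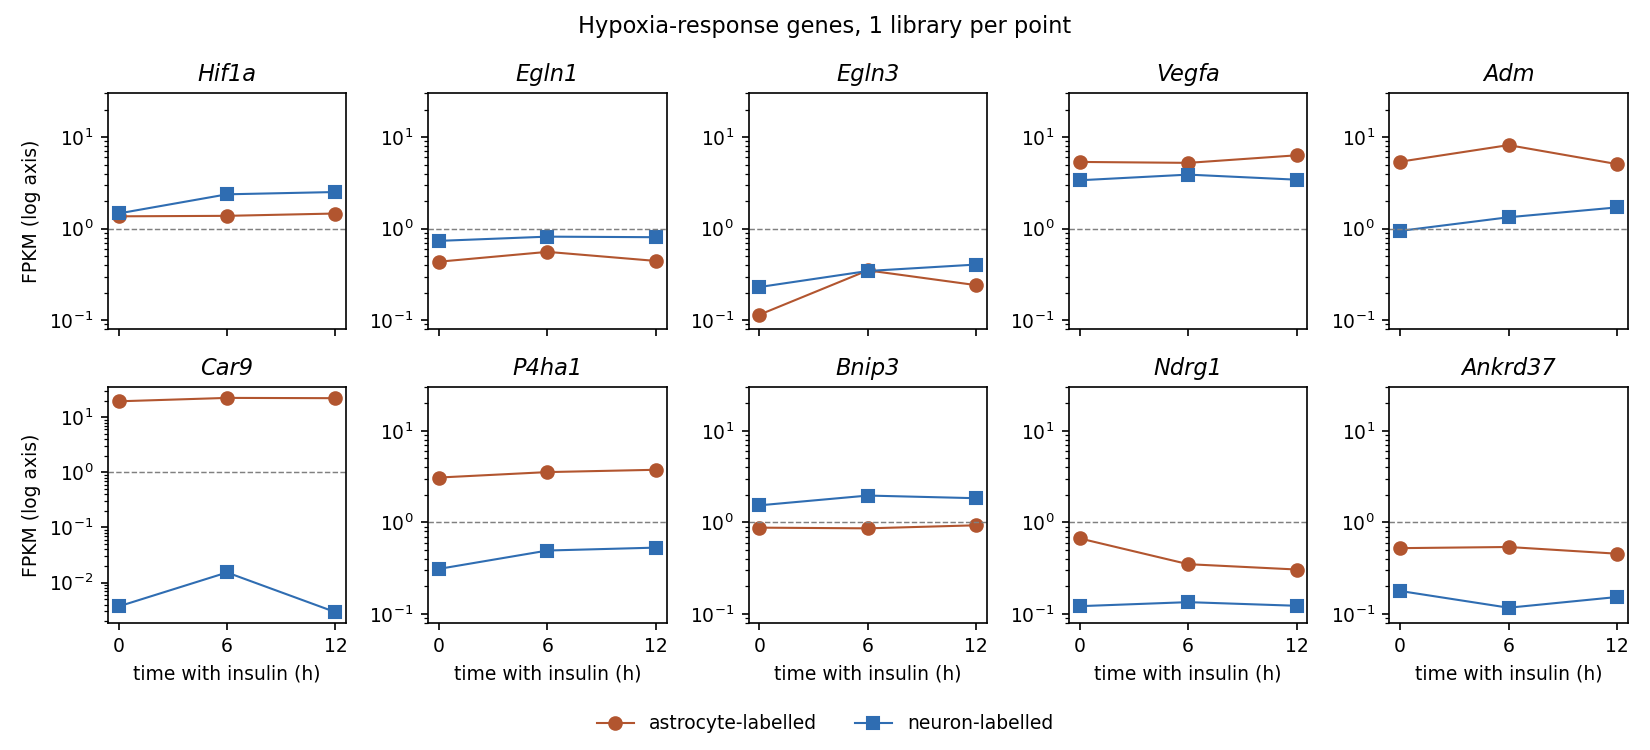
FPKM of each gene (vertical, log axis; the Car9 panel has a wider range than the others) at 0, 6 and 12 h of insulin (horizontal), with circles for the astrocyte-labelled and squares for the neuron-labelled libraries, 1 library per point; the dashed line is 1 FPKM. Hif1a is at 1.37, 1.38 and 1.47 FPKM in the astrocyte-labelled libraries and at 1.47, 2.38 and 2.52 FPKM in the neuron-labelled ones.

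In the neuron-labelled cultures, none of the 4 members compared was called at 2-fold at 6 h or at 12 h after insulin. The share of all genes called was 1.6% higher and 1.29% lower at 6 h, of 6610, and 2.39% higher and 1.45% lower at 12 h, of 6641. The median over the 10 members was 0.42 at 6 h, where that of all genes measured in both libraries was 0.29. At 12 h the medians were 0.20 and 0.28. Of the 10, 9 were above 0 at 6 h and 8 at 12 h, and 6 and 4 were above the median of all genes. In the astrocyte-labelled cultures the counts were 7 and 7 above 0, and 5 and 4 above that median.

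Hif1a was at 1.47 FPKM in the control, 2.38 FPKM at 6 h and 2.52 FPKM at 12 h, so both insulin libraries lay above the control and close to each other. The differences were 0.69 and 0.78, or 0.56 and 0.64 above the median of all genes at 1 FPKM or more. Of the genes compared, 4.93% were at least as high at 6 h and 5.16% at 12 h. With a limit of 1.5-fold, Hif1a was the 1 member called higher at 6 h (8.28% of all genes), and Hif1a and Adm were called higher at 12 h (10.7% of all genes). Adm was below 1 FPKM in the control (0.947 FPKM), so it could be called higher only. In the astrocyte-labelled libraries Hif1a differed by 0.02 and 0.10, and the difference between the cultures was not tested.

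Adm was at 0.947, 1.33 and 1.71 FPKM, with differences of 0.49 and 0.85. At 12 h 3.73% of the genes were at least as high. Its 12 h library was the highest here, whereas in the astrocyte-labelled cultures the 6 h library was. Vegfa was at 3.38, 3.90 and 3.43 FPKM, and its differences of 0.20 and 0.02 lay above and below the all-gene median of 0.14. Bnip3 was at 1.54, 1.96 and 1.84 FPKM, and Bnip3-ps1 at 29.7, 41.0 and 41.1 FPKM, with differences of 0.47 at both times.

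P4ha1 was at 0.311 FPKM in the control, 0.493 FPKM at 6 h and 0.530 FPKM at 12 h, with differences of 0.67 and 0.77 at levels below 1 FPKM. Egln3 was at 0.231, 0.345 and 0.406 FPKM, with differences of 0.58 and 0.82. Of the genes at 0.1 FPKM or more, 11.3% were at least as high as P4ha1 at 12 h and 10.1% as high as Egln3. Smooth muscle and pericyte markers, with 1 of 6 at 1 FPKM or more and Rgs5 blank in the control and at 12 h, summed to 4.52 FPKM before insulin, 6.72 FPKM at 6 h and 10.6 FPKM at 12 h. Fibroblast markers summed to 0.0697, 0.113 and 0.249 FPKM, with none of 5 at 1 FPKM and Dcn and Lum blank in the control. The part of such cells in the P4ha1 values was not tested.

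Egln1 was at 0.737, 0.819 and 0.808 FPKM, and Ndrg1 at 0.122, 0.135 and 0.123 FPKM, with differences of 0.15 or less. Ankrd37 was the member that lay below the control at both times, at 0.178, 0.117 and 0.153 FPKM (-0.61 and -0.22). Car9, at 0.00370, 0.0153 and 0.00292 FPKM, was too low for its differences of 2.04 and -0.34 to be read. Without a floor it was the 1 member called higher at 6 h (13.4% of all genes) and the 1 called lower from 6 h to 12 h (5.77%).

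**Figure D3:**
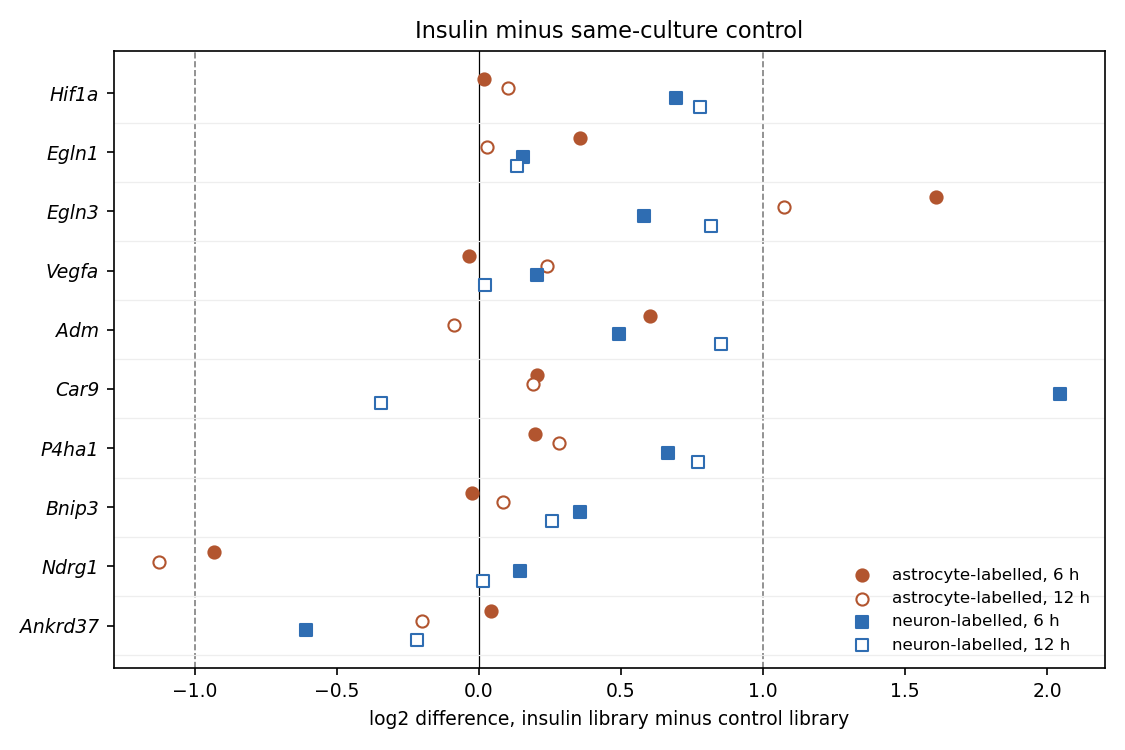
Log2 difference of each insulin library from the control library of the same culture (horizontal) for the 10 genes (vertical), with circles for the astrocyte-labelled and squares for the neuron-labelled cultures, filled at 6 h and open at 12 h, and dashed lines at 2-fold. Past the dashed lines lie Egln3 at both times and Ndrg1 at 12 h in the astrocyte-labelled cultures and Car9 at 6 h in the neuron-labelled cultures, all below 1 FPKM; Hif1a lies at 0.69 and 0.78 in the neuron-labelled cultures.

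Between the 6 h and 12 h insulin libraries no member was called in either culture. In the astrocyte-labelled pair 0.256% of genes were called higher and 0.511% lower, and in the neuron-labelled pair 0.555% and 0.51%. Beside Adm, the differences in the astrocyte-labelled pair were -0.54 for Egln3, -0.33 for Egln1 and 0.27 for Vegfa. In the neuron-labelled pair Adm differed by 0.36, Egln3 by 0.23, Ankrd37 by 0.39 and Hif1a by 0.08.

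The rest of the pathway gave a frame for these values. Among 15 HIF subunits and regulators, none was called in any insulin comparison, and their medians were 0.16 and 0.21 in the astrocyte-labelled and 0.19 and 0.10 in the neuron-labelled cultures at 6 h and 12 h. Epas1, which encodes HIF2 alpha, was at 0.0499 FPKM in the astrocyte-labelled and 0.619 FPKM in the neuron-labelled control. It was at 0.618 and 0.661 FPKM after 6 h and 12 h in the latter, with a 12 h difference of 0.09 beside 0.78 for Hif1a. Vhl was at 5.49 and 13.8 FPKM in the controls, and Cited2, a HIF target that competes with HIF for the coactivator p300, at 41.4 and 13.8 FPKM. Between the controls, 2 of the 15 lay above 0 and 13 below (median -0.63, beside -0.10 over all genes). Of the 7 at 1 FPKM or more, Cited2 was called higher and P4htm, Siah1 and Vhl lower in the astrocyte-labelled control. Of all genes, 18.7% were called higher and 21.9% lower. P4htm (0.420 against 1.27 FPKM) and Siah1 (0.648 against 1.55 FPKM) reached 1 FPKM in the neuron-labelled control alone. They could thus be called lower only, and these counts are a description.

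Of 32 other non-glycolytic targets, 18 reached 1 FPKM in each astrocyte-labelled comparison. None was called at 6 h. At 12 h Cxcr4, a chemokine receptor gene, fell, beside 0.916% of all genes called lower. It was at 1.06 FPKM in the control, 0.717 FPKM at 6 h and 0.480 FPKM at 12 h (-1.14). As Cxcr4 reached 1 FPKM in the control alone, it could be called lower only. Stc2, a secreted glycoprotein gene, was just short of 2-fold at 6 h (0.98), at 0.753, 1.49 and 1.20 FPKM. Of the 12 compared in the neuron-labelled cultures, none was called at either time. The medians over the 30 with a value in both libraries were 0.21 and 0.17 in the astrocyte-labelled and 0.20 and 0.25 in the neuron-labelled cultures, beside 0.16, 0.18, 0.29 and 0.28 over all genes. Among the 15 glycolytic targets, none was called in an insulin comparison. Their medians were 0.34 and 0.36 in the astrocyte-labelled cultures, where 14 of 15 lay above the median of all genes at 6 h and 11 at 12 h, and 0.21 and 0.30 in the neuron-labelled cultures, where 6 and 10 did.

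Of the VEGF family and adrenomedullin receptor genes on the list (Kdr, Flt1, Flt4, Nrp1, Nrp2, Calcrl, Ramp2 and Ramp3), Ramp2 alone reached 1 FPKM in any library. Kdr, the main VEGF receptor, was blank in all astrocyte-labelled libraries and at most 0.00203 FPKM in the neuron-labelled ones, and Flt1 was between 0.00318 and 0.0885 FPKM. The VEGF co-receptors Nrp1 and Nrp2 were higher, at 0.340 and 0.586 FPKM in the astrocyte-labelled control and 0.0840 and 0.244 FPKM in the neuron-labelled one. Calcrl, the adrenomedullin receptor, was between 0.0329 and 0.198 FPKM. Its partner Ramp2 was higher, at 0.887 FPKM in the astrocyte-labelled and 2.94 FPKM in the neuron-labelled control. Placental growth factor (Pgf) was at 4.06, 6.54 and 5.65 FPKM in the astrocyte-labelled libraries and at most 0.0997 FPKM in the neuron-labelled ones.

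**Figure D4:**
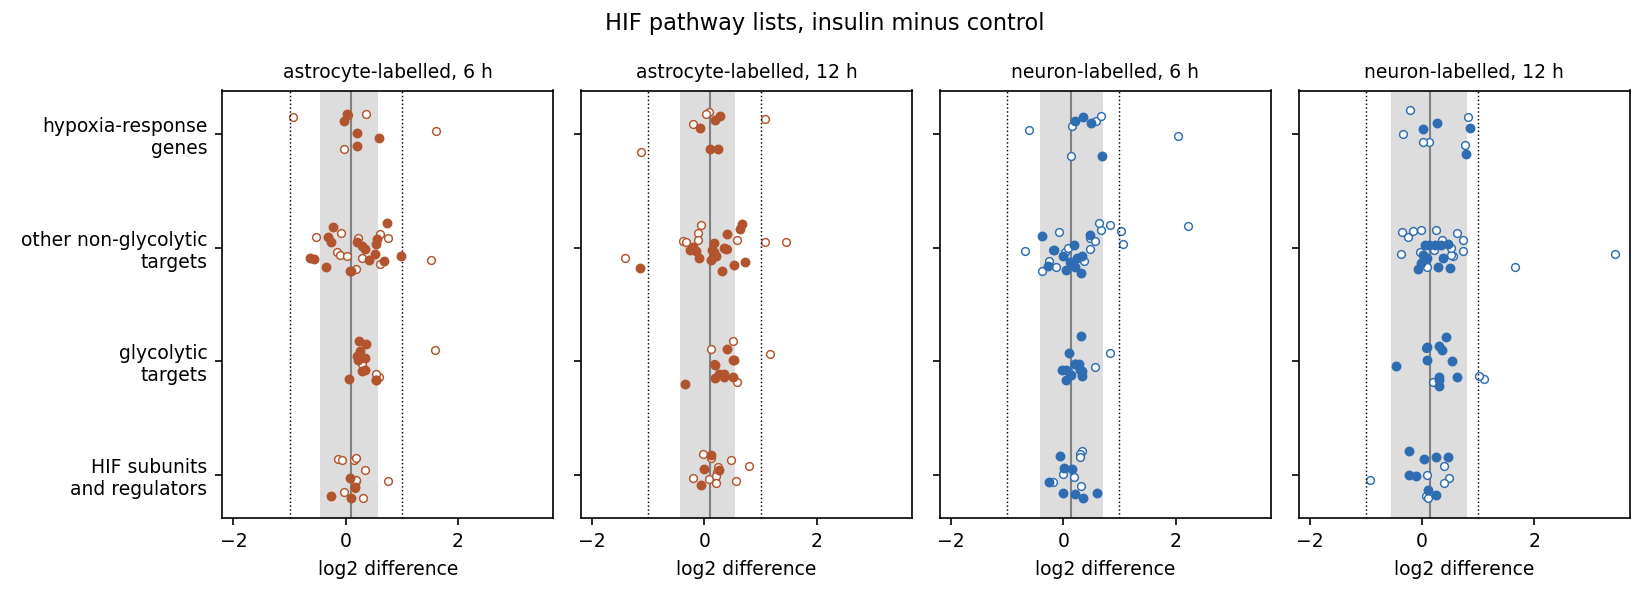
Log2 difference, insulin minus control (horizontal), for each gene of 4 lists (vertical, spread at random within a list) in the 4 insulin comparisons; filled points reached 1 FPKM in either library and open points did not. The grey band runs from the 5 to the 95 percentile of all genes at 1 FPKM or more, the line in it is their median, and dotted lines mark 2-fold: among filled points Cxcr4 at 12 h in the astrocyte-labelled cultures is the one outside the dotted lines.

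The likeness of other genes to the 2 members at 1 FPKM or more in every library was measured by the largest gap over the 4 insulin minus control differences. For Hif1a, the nearest of 1487 genes were Yae1d1, Serbp1 and Gng10, with largest gaps of 0.06, 0.08 and 0.09. Serbp1, for example, was at 5.77, 9.34 and 9.38 FPKM in the neuron-labelled libraries and at 8.20, 8.20 and 8.88 FPKM in the astrocyte-labelled ones. For Vegfa, the nearest of 1486 genes were Calm2, Fam96b and Arl6ip1, with gaps of 0.03, 0.05 and 0.06.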

How the data were processed

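Libraries of ribosome-depleted total RNA were made with a kit that keeps strand, per the labels' protocols. The deposited table holds log2 FPKM, quantile-normalised over the 6 libraries by the authors, as its name and its shared quantiles show. Base 2 was settled from the 45S rRNA gene Rn45s (8.679 kb in the RefSeq table), whose 13.67 would, as a natural log, exceed the library total. Partek 6.5, bcl2fastq 2.17.1.14 and the build Rnor 6.0 appear in the submitters' processing notes. Aligner, annotation and strand setting: not given in the sources used here.

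Columns were matched to samples by their description labels, and 0 per-sample columns were left unused. Of 37185 rows, the lower of each of 2 repeated symbols was dropped, and blank cells had no value. Of 85 pathway genes in 5 lists, 84 were found, 2 by an older symbol (Ero1l, Figf). Differences were taken on the deposited scale without a pseudocount, with pandas 2.3.3 (Python 3.11.15), and the counting was tested on simulated data. With 1 library per group no test was run. The members and lists were chosen with earlier results of these data known. All members were named. Other genes were named when past 2-fold, among the 4 largest of a list, as markers, or as the 3 nearest in pattern to Hif1a or Vegfa among genes at 1 FPKM or more in all libraries and 5 FPKM in at least 1. The genes Plod2, P4ha2, P4ha3, Epas1, Vhl, Cited2, Egln2 and those of the VEGF and adrenomedullin list were described for their roles, after their values were seen. Alternatives were floors of none, 0.1 and 5 FPKM, log2(FPKM + 1), centring on all genes and 1.5-fold. Promoter windows are RefSeq GRCr8 and their coordinates do not apply to Rnor 6.0.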

Additional observations from a re-analysis of the deposited data

Results flagged for a closer look

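Ndrg1 lay below the control at both times in the astrocyte-labelled cultures (-0.93 at 6 h and -1.13 at 12 h) and above it at both times in the neuron-labelled cultures (0.15 and 0.0140), so that the insulin libraries of the 2 cultures lay on opposite sides of their controls. The difference between the cultures was not tested, the neuron-labelled values lay -0.08 and -0.21 from the median of all genes at 0.1 FPKM or more, and all Ndrg1 levels were below 1 FPKM.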

How the results depend on the processing

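No paired analysis was possible because each group has 1 library, and for the same reason no library could be left out. Depth is unknown, so values below 1 FPKM carry no detection limit. A count was taken to hold when within 1.5 times its main value, and a median when it shifted by less than 0.1, as no replicate spread exists. With no floor, and also with a floor of 0.1 FPKM added after the data were seen, 1 member was called higher at 6 h and at 12 h (Egln3) and 1 lower at 12 h (Ndrg1) in the astrocyte-labelled cultures, and 5 higher and 1 lower in the astrocyte-labelled control; with no floor alone, 1 (Car9) was higher at 6 h in the neuron-labelled cultures and 1 lower from 6 h to 12 h. At 1.5-fold, 1 member was higher in each culture at 6 h, 2 in the neuron-labelled cultures at 12 h, 1 lower from 6 h to 12 h in the astrocyte-labelled cultures and 1 lower in the astrocyte-labelled control. Centring on all genes with a value turned the insulin medians to -0.0450 and -0.0885 (astrocyte-labelled, 6 h and 12 h) and 0.13 and -0.0877 (neuron-labelled), and that of the controls to 1.21. Among members at 1 FPKM or more, a floor chosen after the data were seen for medians, the median was 0.52 at 12 h in the neuron-labelled cultures, 0.0837 from 6 h to 12 h in the astrocyte-labelled ones and 1.59 between controls. At 5 FPKM it was 2.51 between controls. With log2(FPKM + 1) it was 0.14 at 6 h in the neuron-labelled cultures and 0.45 between controls. The cause of these shifts beyond the genes included was not tested. The only members called in the main setting were Car9, Adm and P4ha1, between the controls. These settings could not have turned their direction. The log2(FPKM + 1) scale keeps every sign, and centring moved them by the all-gene median of -0.10 alone.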

Other observations

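In the astrocyte-labelled cultures 2 other HIF targets had values close to those of Egln3 at levels below 1 FPKM, and were picked after their values were seen. Slc16a3, the lactate exporter MCT4, was at 0.195 FPKM before insulin, 0.587 FPKM at 6 h and 0.436 FPKM at 12 h (1.59 and 1.16), and Cox4i2, a cytochrome oxidase isoform gene, at 0.0498, 0.143 and 0.106 FPKM (1.52 and 1.09). All 3 share the same control library. Ndufa4l2, a further target of this kind, was at 0.0843, 0.143 and 0.230 FPKM (0.76 and 1.45), with its highest value at 12 h. With no floor, 9.12% of all genes were called higher at 6 h and 9.0% at 12 h. Of the 30 other non-glycolytic targets with a value, 20 lay above 0 and 10 below at 6 h. At 12 h 19 lay above and 11 below. Below at both times were, among others, Car12 (-0.16 and -1.42) and Mxi1 (-0.53 and -0.38), also under 1 FPKM.

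In the neuron-labelled cultures Edn1, which encodes endothelin-1 and was picked after its values were seen, was at 0.00905, 0.0188 and 0.0285 FPKM (1.06 and 1.66), and in the astrocyte-labelled control at 10.3 FPKM. The smooth muscle genes Tagln (4.35, 6.53 and 10.3 FPKM) and Cnn1 (0.00311, 0.00757 and 0.0282 FPKM) were higher in the same neuron-labelled insulin libraries than in their control. Of the other 4 smooth muscle and pericyte markers, Acta2 and Pdgfrb were higher at both times as well, Myh11 was lower at 12 h and blank at 6 h, and Rgs5 had a value at 6 h alone. The part of such cells in the Edn1 values was not tested.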
